A study of Mus musculus with 16 samples.

Results

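Glutathione S-transferases (GSTs) were examined in the transcriptomes of mouse hair follicle stem cell (HFSC) organoids. The set comprised 10 named genes, Gsta1, Gsta2, Gsta3, Gsta4, Gstm1, Gstm2, Gstm5, Gsto1, Gstp1 and Gstt1, of 32989 gene identifiers in the count table. Each symbol matched 1 Ensembl identifier, and 9 of the 10 genes were among the 19049 genes with a mean of at least 5 counts that entered the tests. Gstt1 did not pass this filter. The set was drawn up with earlier results of these data known, and the values that selected the genes are not recorded. The genes were taken to have been chosen by the log2 fold change under treatment in CD34− progenitors, where Gsta4 and Gsta1 stood out, so the values of that comparison are given as a description, without p-values for the GSTs. Had another comparison also served in the choice, its p-values for the GSTs would not be independent of it.

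The organoids were grown from epidermal cells of 4 C57BL/6J mice for 2 weeks in 3D–3C culture, a three-dimensional Matrigel culture that enriches HFSCs. For 72 h, N1-AcSpd (N1-acetylspermidine, a polyamine carrying an acetyl group) was added or the organoids were left untreated. Sorting separated CD34− progenitors from CD34+ HFSCs among α6+ cells, where α6 integrin marks basal epidermal cells and CD34 marks stem cells of the hair follicle bulge. The design gave 4 groups of 4 libraries, with every mouse present in every group: untreated CD34−, N1-AcSpd CD34−, untreated CD34+ and N1-AcSpd CD34+. All cells came from culture rather than directly from skin.

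GSTs are enzymes that join the tripeptide glutathione to reactive, electrophilic compounds, which can then be exported from the cell. The soluble enzymes fall into classes named by Greek letters. Alpha and mu enzymes act on products of lipid peroxidation and on epoxides, and pi enzymes are abundant in many epithelia. Omega enzymes have thioltransferase and dehydroascorbate reductase activity, and theta enzymes act on small halogenated compounds. Many GST genes are known targets of the transcription factor NRF2, which binds antioxidant response elements.

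Libraries held 15480075 to 29074855 unique molecular identifiers (UMIs) each, and 22142 to 24247 genes had at least 1 UMI. Cd34 had a mean of 3.19 ± 0.0943 CPM (counts scaled by TMM to a common library size; SD, n = 4) in untreated CD34− cells and 49.98 ± 5.90 CPM in untreated CD34+ cells, and its ranges did not overlap under treatment either. Itga6, Krt5, Krt14 and Trp63 were detected in all 4 groups. Markers of suprabasal keratinocyte differentiation summed to 1040–1400 CPM in untreated CD34− libraries and 299–324 CPM in untreated CD34+ libraries, and the corresponding ranges under N1-AcSpd were 1260–1590 CPM and 313–405 CPM. Fibroblast and immune markers each summed to at most 6.20 CPM in any library. Sebaceous gland markers summed to at most 12.1 CPM and melanocyte markers to at most 36.1 CPM. In bulk RNA, fewer cells of a type and less RNA per cell cannot be told apart.

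Several of these genes have close copies or overlapping neighbours, so their counts were first compared with those of other features. The share of a gene's 31-base words in the last 500 bases of its transcripts that also occurred in transcripts of another gene was 0.0% for Gsta4, Gstm5 and Gsto1, 0.815% for Gstt1 and 0.946% for Gsta3. It was 15.3% for Gstm2, 31.1% for Gstm1, 42.2% for Gstp1, 77.2% for Gsta2 and 95.3% for Gsta1. Gsta4 was thus the alpha gene without shared words.

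Gsta1 shared 94.3% of these words with the neighbouring gene Gm3776 and 44.0% with Gsta2. The count of Gm3776 was 80.5–99.7% of that of Gsta1 in 15 libraries and 0 in the N1-AcSpd CD34+ library of mouse 4. Gsta2 shared 56.3% of its words with Gm10639, which was listed at 0 in 8 libraries. Values of Gsta1 and Gsta2 are therefore uncertain as to which copy was transcribed.

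Gstp1 kept a nearly fixed proportion to its copy Gstp2, whose count was 83.4–86.5% of that of Gstp1 in all 16 libraries. The SD of the log2 ratio of the pair across libraries was 0.0119, below the 0.0387 that counting error alone would give for independent counts. Gstp1 and Gstp2 therefore did not provide separate measurements here. The pseudogene Gstp-ps was listed at 0 in 8 libraries and at 46.2–48.9% of the Gstp1 count in the others.

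Gsto1 and Gsta3 overlap genes on the opposite strand. Cfap43, which overlaps Gsto1, had 101–102% of its count in every library, and Gm28836 had the same count as Gsta3 in 16 of 16 libraries. How strand was treated in counting is not given in the sources used here, so transcripts from the paired strands cannot be told apart. Gstm5 also overlaps an antisense gene, 4933431E20Rik, but that gene had a mean of 19.6 counts against 409 for Gstm5.

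**Figure D1:**
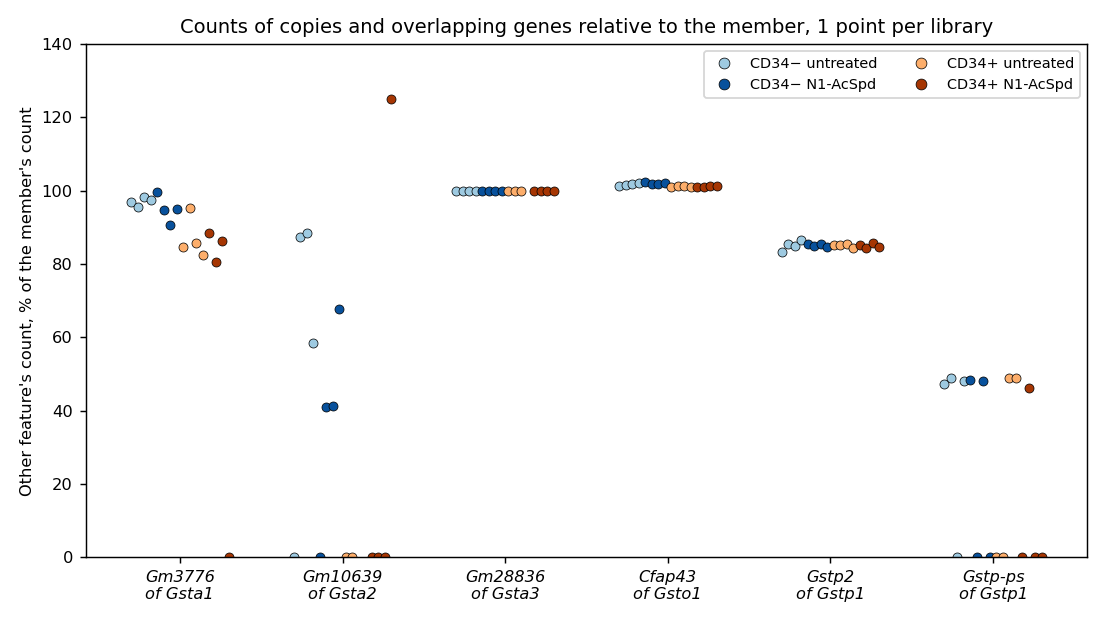
Count of a copy or overlapping gene as a percentage of the count of the GST gene (vertical axis), with 1 point per library ordered by group and coloured by group. Gm28836 lies at 100% of Gsta3 and Cfap43 at 101–102% of Gsto1, Gstp2 stays between 83.4% and 86.5% of Gstp1, and Gstp-ps is at 0 in 8 libraries.

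Gsta4, Gsta1 and Gsta2 are neighbours on chromosome 9 in the GRCm38 (mm10) annotation, at chr9:78182774-78209349, chr9:78230656-78242684 and chr9:78331018-78355788, with Gsta2 on the minus strand. Gsta3 lies apart on chromosome 1 (chr1:21240589-21265661). Gstm5 (chr3:107895821-107898686), Gstm2 (chr3:107981702-107986453) and Gstm1 (chr3:108012255-108017973) form a cluster on chromosome 3. Gstp1 (chr19:4035407-4037985) and Gsto1 (chr19:47854970-47864790) are far apart on chromosome 19, and Gstt1 is on chromosome 10 (chr10:75783813-75798584).

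RefSeq start sites were given for 9 of the 10 genes on build GRCm38.p6, and Gsta4 is named only. Gsta1 and Gsta2 varied together across libraries and also share transcript words. The 250 bases upstream of their start sites are shown (chr9:78230419-78230668, plus strand, and chr9:78347146-78347395, minus strand). Capitals mark the longest run that both windows share, 29 bases. The longest shared run was 184 bases for Gsta1 and Gm3776 and 43 bases for Gstp1 and Gstp2.

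Gsta1: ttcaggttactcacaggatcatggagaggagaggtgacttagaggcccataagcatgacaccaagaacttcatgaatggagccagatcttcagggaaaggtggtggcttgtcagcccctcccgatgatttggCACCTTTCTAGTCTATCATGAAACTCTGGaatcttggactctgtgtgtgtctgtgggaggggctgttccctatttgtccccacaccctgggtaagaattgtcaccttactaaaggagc
Gsta2: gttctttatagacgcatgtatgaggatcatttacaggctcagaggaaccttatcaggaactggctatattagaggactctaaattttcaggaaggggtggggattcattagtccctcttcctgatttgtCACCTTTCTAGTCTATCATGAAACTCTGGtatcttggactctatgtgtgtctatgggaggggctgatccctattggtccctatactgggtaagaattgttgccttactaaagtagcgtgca

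The upstream windows were also searched on both strands for TGACNNNGC, the core of the antioxidant response element, and for TGACTCA, the AP-1 consensus, which a longer antioxidant response element can contain. TGACNNNGC occurred in 10.2% and TGACTCA in 4.46% of all 32851 RefSeq windows of this length, so single matches are common. Both occurred in the same window in 0.724% of windows. Gsta3, Gstm5 and Gstp1 held a match and the other 6 genes with a window held neither. Their windows are shown with the matches in capitals (chr1:21240335-21240584, plus strand, chr3:107895604-107895853, plus strand, and chr19:4037913-4038162, minus strand).

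Gsta3: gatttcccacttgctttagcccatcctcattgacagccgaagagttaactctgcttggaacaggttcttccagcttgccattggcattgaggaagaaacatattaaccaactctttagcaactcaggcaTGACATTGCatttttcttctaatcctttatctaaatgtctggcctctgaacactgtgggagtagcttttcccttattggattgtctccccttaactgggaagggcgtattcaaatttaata
Gstm5: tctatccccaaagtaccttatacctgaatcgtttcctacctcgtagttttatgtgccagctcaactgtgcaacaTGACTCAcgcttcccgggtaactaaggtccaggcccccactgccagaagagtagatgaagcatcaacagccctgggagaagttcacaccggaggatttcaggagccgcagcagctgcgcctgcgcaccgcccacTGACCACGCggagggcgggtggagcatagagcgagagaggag
Gstp1: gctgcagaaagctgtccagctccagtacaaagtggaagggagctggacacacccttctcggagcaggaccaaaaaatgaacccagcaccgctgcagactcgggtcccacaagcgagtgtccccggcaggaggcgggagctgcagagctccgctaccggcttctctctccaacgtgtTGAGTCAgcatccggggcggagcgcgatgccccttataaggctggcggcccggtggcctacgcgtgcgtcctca

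Gsta3 had TGACATTGC beginning 121 bases before the start site. Gstm5 had TGACTCA at 176 bases and TGACCACGC at 42 bases, and Gstp1 had TGAGTCA, the reverse complement of TGACTCA, at 74 bases. These matches describe the letters of the windows and are not evidence of binding.

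The first comparison asked how GST transcripts differed between HFSCs and progenitors. In untreated organoids, alpha-class Gsta1, Gsta2 and Gsta4 and omega-class Gsto1 were lower in HFSCs, whereas mu-class Gstm1, Gstm2 and Gstm5 were higher. Thus 7 of 9 tested GSTs differed at an adjusted p under 0.05 (edgeR quasi-likelihood test, Benjamini-Hochberg adjustment over 19049 genes), against 32.1% of all genes. With 3 of 9 higher and 4 of 9 lower, the corresponding shares of all genes were 16.1% in each direction. The median log2 fold change (CD34+ minus CD34−) was 0.08 over the 9 genes and 0.02 over all genes. Under N1-AcSpd, 8 of 9 GSTs differed, against 33.3% of all genes, with 4 higher (16.5% of all genes) and 4 lower (16.8%). Both counts include Gsta2, which passed the count filter through the progenitor groups, where it is high. The CD34− libraries in both comparisons are also part of the comparison from which Gsta4 and Gsta1 were known.

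**Figure D2:**
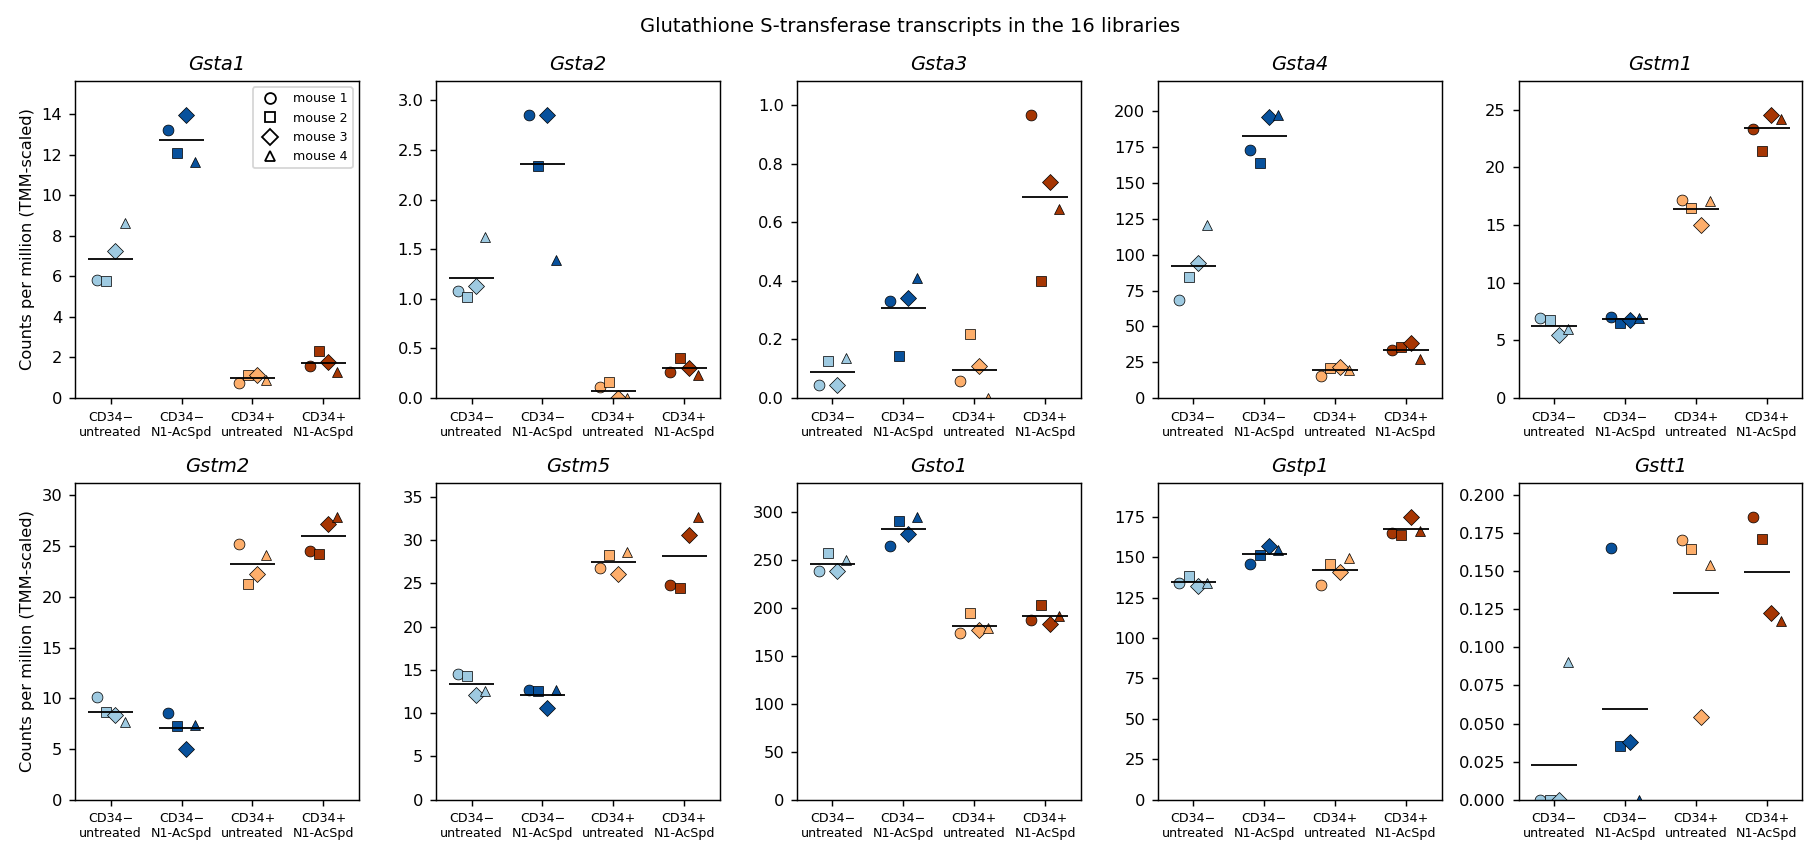
TMM-scaled CPM of the 10 GST genes (vertical axes, linear, starting at 0) in the 4 groups, with a marker shape for each of the 4 mice and a line at the group mean. Gsta1, Gsta2 and Gsta4 are high in the CD34− groups, and Gstm1, Gstm2 and Gstm5 are high in the CD34+ groups. Gstp1 has group means from 134.6 CPM (untreated CD34−) to 167.4 CPM (N1-AcSpd CD34+).

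Gsta4 encodes the alpha enzyme known for its activity towards 4-hydroxynonenal, a product of lipid peroxidation. In CD34− progenitors its level was 68.4, 84.3, 94.1 and 120.5 CPM in mice 1 to 4 without treatment and 173, 164, 196 and 197.5 CPM with N1-AcSpd. In CD34+ HFSCs it was 15.4, 20.8, 21.5 and 19.8 CPM without treatment and 33.4, 35.8, 38.3 and 27.1 CPM with N1-AcSpd. All CD34− libraries were above all CD34+ libraries, and within each fraction the treated and untreated ranges did not overlap. Untreated HFSCs had a 4.74-fold lower level than progenitors (log2 fold change −2.25, SE 0.166, adjusted p = 7.37e-07, edgeR), and treated HFSCs a 5.43-fold lower level (log2 fold change −2.44, SE 0.167, adjusted p = 3.29e-07, edgeR). It was lower in HFSCs of 4 of 4 mice in both comparisons.

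Gsta1 and Gsta2, alpha enzymes with broad conjugating activity, followed the same order at lower counts. Gsta1 was at 5.81, 5.75, 7.23 and 8.62 CPM in untreated progenitors of mice 1 to 4 and at 13.2, 12.1, 13.96 and 11.65 CPM in treated ones. In HFSCs it was at 0.740, 1.15, 1.14 and 0.874 CPM without treatment and at 1.597, 2.33, 1.78 and 1.29 CPM with N1-AcSpd. The 4 groups did not overlap in any pair within a fraction or within a treatment. The log2 fold change between fractions was −2.80 (SE 0.195, adjusted p = 5.04e-07, edgeR) without treatment and −2.86 (SE 0.188, adjusted p = 2.55e-07, edgeR) with N1-AcSpd.

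Gsta2 rested on few molecules in HFSCs, with 5 UMIs over the 4 untreated libraries (2, 3, 0 and 0) and 23 over the treated ones (7, 7, 5 and 4). In progenitors it was at 1.075, 1.02, 1.13 and 1.62 CPM without treatment and at 2.85, 2.34, 2.85 and 1.395 CPM with N1-AcSpd. Gsta2 was lower in HFSCs of 4 of 4 mice in each comparison, with non-overlapping ranges. Its log2 fold changes were −4.04 (SE 0.611, adjusted p = 2.07e-04, edgeR) without treatment and −2.96 (SE 0.521, adjusted p = 5.59e-04, edgeR) with N1-AcSpd. Gsta2 passed the count filter through the progenitor groups, with 103 UMIs over the untreated and 244 over the treated libraries. These p-values are therefore given as a description. When Gsta1 and Gsta2 were summed, the difference between fractions stayed past the threshold in both comparisons. Where Gsta2 had a count, that of Gsta1 was 464–835% of it, so the sum mostly follows Gsta1. It gives no separate reading of Gsta2, and Gm3776 and Gm10639 were not part of it.

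Gsta3, the remaining alpha gene, behaved differently, and its counts equal those of the antisense Gm28836. It had 1, 2, 1 and 3 UMIs in untreated progenitors, 8, 4, 9 and 10 in treated progenitors, 1, 4, 2 and 0 in untreated HFSCs and 26, 7, 12 and 11 in treated HFSCs. No difference between fractions passed the test, with log2 fold changes of 0.16 (95% interval −1.37 to 1.68) without treatment and 1.16 (−0.07 to 2.40) with N1-AcSpd. Gsta3 passed the count filter mainly through the treated groups.

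Gsto1 encodes an omega enzyme with thioltransferase and dehydroascorbate reductase activity. Its level was 238, 256, 238 and 250 CPM in untreated progenitors and 264.5, 290.2, 276 and 295 CPM in treated progenitors. HFSCs had 174, 195, 177 and 179 CPM without treatment and 187, 203, 183 and 191 CPM with N1-AcSpd. Every HFSC library was below every progenitor library, but the difference was smaller than for the 3 alpha genes above, at 1.36-fold (log2 fold change −0.44, SE 0.0473, adjusted p = 1.03e-05, edgeR) without treatment and 1.47-fold (log2 fold change −0.56, SE 0.0474, adjusted p = 1.35e-06, edgeR) with N1-AcSpd. Cfap43 had log2 fold changes of −0.45 and −0.57 in these comparisons.

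In the mu class, Gstm1 was at 6.93, 6.77, 5.50 and 5.96 CPM in untreated progenitors and 7.06, 6.50, 6.77 and 6.93 CPM in treated progenitors. HFSCs had 17.2, 16.5, 15.02 and 17.1 CPM without treatment and 23.4, 21.4, 24.6 and 24.2 CPM with N1-AcSpd. The treated HFSC libraries were thus the highest of the 4 groups and overlapped none of the others. The HFSC level was 2.61-fold that of progenitors without treatment (log2 fold change 1.39, SE 0.0737, adjusted p = 6.99e-08, edgeR) and 3.43-fold with N1-AcSpd (log2 fold change 1.78, SE 0.074, adjusted p = 5.94e-09, edgeR).

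Gstm2 and Gstm5 shared the direction of Gstm1. Gstm2 was at 10.1, 8.69, 8.36 and 7.63 CPM in untreated progenitors, 8.54, 7.31, 5.02 and 7.38 CPM in treated progenitors, 25.2, 21.2, 22.2 and 24.1 CPM in untreated HFSCs and 24.5, 24.2, 27.2 and 27.9 CPM in treated HFSCs. Gstm5 was at 14.5, 14.3, 12.1 and 12.6 CPM, 12.7, 12.5, 10.65 and 12.7 CPM, 26.8, 28.3, 26.03 and 28.6 CPM, and 24.8, 24.4, 30.6 and 32.7 CPM in the same order of groups. For both genes the HFSC libraries were all above the progenitor libraries, whereas treated and untreated libraries overlapped within each fraction. HFSCs had 2.67-fold (adjusted p = 3.20e-06, edgeR) and 3.67-fold (adjusted p = 4.74e-07) higher Gstm2 without and with N1-AcSpd. For Gstm5 the folds were 2.05 (adjusted p = 3.41e-06, edgeR) and 2.31 (adjusted p = 1.01e-06). Gstm5 shares no 31-base words with another gene, so its direction does not depend on copies in the mu cluster.

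Gstp1, the pi enzyme, differed little between fractions. Progenitors had 134, 139, 132 and 134 CPM without treatment and 145.5, 152, 157 and 154 CPM with N1-AcSpd, and HFSCs had 133, 146, 141 and 150 CPM and 165, 163, 175 and 166 CPM. Untreated ranges overlapped (log2 fold change 0.08, 95% interval −0.00327 to 0.163, adjusted p = 0.139, edgeR), and the treated difference was 1.10-fold (log2 fold change 0.14, SE 0.0387, adjusted p = 0.0133, edgeR). The treated difference lost the threshold without mouse 2 (adjusted p = 0.054) or mouse 3 (0.0718). The untreated difference passed it without the CD34+ library of mouse 1 (log2 fold change 0.11, adjusted p = 0.0337, edgeR). With library totals in place of TMM factors, which moved the median of all genes by 0.115 in both comparisons, the untreated difference of Gstp1 was 0.20 (adjusted p = 0.0033).

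Gstt1, the theta enzyme, was near the detection limit, with 0, 0, 0 and 2 UMIs in untreated progenitors, 4, 1, 1 and 0 in treated progenitors, 3, 3, 1 and 3 in untreated HFSCs and 5, 3, 2 and 2 in treated HFSCs. It was not tested, and no difference can be read at this depth.

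**Figure D3:**
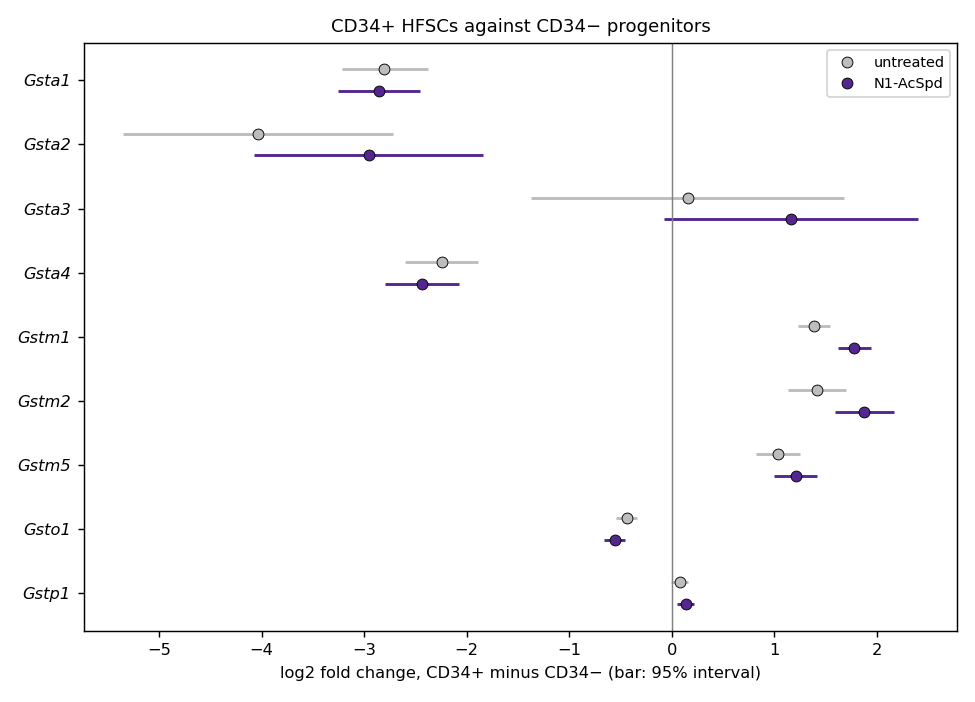
Log2 fold change between CD34+ HFSCs and CD34− progenitors (horizontal axis, positive when higher in HFSCs) for the 9 tested GSTs, without treatment (grey) and with N1-AcSpd (purple), with 95% intervals. Gsta1, Gsta2, Gsta4 and Gsto1 lie below 0 and the mu genes above 0 in both comparisons, and the Gsta3 intervals span 0.

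The markers of suprabasal differentiation moved with Gsta1, Gsta2 and Gsta4, though not with Gsta3, between fractions. In both comparisons 8 of 8 were lower in HFSCs, against 16.1% of all genes without treatment and 16.8% with N1-AcSpd. Ivl, a cornified envelope protein, was at −1.75 on the log2 scale in untreated cells. Of the HFSC markers, 5 of 7 were higher in both comparisons, against 16.1% and 16.5% of all genes. The part of both marker sets in the difference of the GSTs was not tested.  All 7 untreated calls held in all 20 runs that left out a library or a mouse.

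The second comparison asked how N1-AcSpd changed GST transcripts in HFSCs. The mu gene Gstm1 rose 1.42-fold and the pi gene Gstp1 1.18-fold, and no tested GST fell. These were 2 of 9 tested GSTs, against 0.325% of all genes (62 of 19049). All 9 log2 fold changes were above 0, with a median of 0.51 against −0.01 over all genes. Gstm5 was at 0.04 and changed sign in 4 of 20 runs without a library or a mouse. Gsta1 and Gsta2 share transcript words, so nothing is read from the 9 shared signs. The HFSC libraries also came from the same 4 mice as the comparison taken to have led to the choice of genes. For Gstm1 the log2 fold change was 0.51 (SE 0.0718, adjusted p = 8.68e-03, edgeR), it was higher in 4 of 4 mice, and the treated range of 21.4–24.6 CPM lay above the untreated range of 15.02–17.2 CPM. Gstp1 changed by 0.23 (SE 0.0387, adjusted p = 0.0235, edgeR), also higher in 4 of 4 mice, and its copy Gstp2 by 0.23 (adjusted p = 0.0274, edgeR).

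Neither call in HFSCs held in every run that left out a library or a mouse. Gstm1 kept its call in all 16 runs without a single library and lost it in all 4 runs without a mouse (adjusted p up to 0.115, log2 fold changes 0.45–0.55). The call of Gstp1 was lost without the untreated library of mouse 1 (adjusted p = 0.0663), the N1-AcSpd library of mouse 3 (0.0885) or of mouse 4 (0.0501), and in all 4 runs without a mouse. In a fit of the CD34+ libraries alone the adjusted p was 0.0571 for Gstm1 (log2 fold change 0.52) and 0.229 for Gstp1 (0.24), so the sizes stayed close to those above. Over the 20 runs the log2 fold change of Gstp1 was 0.20–0.28.

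The alpha genes had larger changes with wider error in HFSCs. Gsta4 was 1.74-fold higher with N1-AcSpd (log2 fold change 0.80, SE 0.160) and higher in 4 of 4 mice, but its adjusted p was 0.060 (edgeR). It passed the threshold with DESeq2 size factors (adjusted p = 0.0491), in the DESeq2 test (1.03e-04) and when untreated progenitors of mouse 1 (0.0393) or mouse 4 (0.0341) were left out. Those were 2 of the 20 leave-out runs, and the adjusted p of Gsta4 rose to 0.168 without a library and 0.299 without a mouse (edgeR). Among the other alternatives it rose to 0.173. With mouse as a block, which uses the pairing of the 4 groups within mice, its log2 fold change was 0.81 and its adjusted p = 0.0352 (edgeR), and 152 genes in place of 62 passed the threshold. Gsta1 was 1.79-fold higher (log2 fold change 0.84, SE 0.199, adjusted p = 0.0989, edgeR) in 4 of 4 mice. The fitted changes were 2.04 for Gsta2 (SE 0.640, adjusted p = 0.207, edgeR) and 2.78 for Gsta3 (SE 0.650, adjusted p = 0.0961, edgeR), both from a handful of molecules in untreated HFSCs. None of these 4 genes passed the main test, and Gsta3 passed the count filter mainly through the treated groups. Of the 8 suprabasal markers, 0 passed the test for treatment in either fraction (edgeR), with median log2 fold changes of 0.30 in HFSCs and 0.10 in progenitors. Ivl was at 0.60 in both (adjusted p = 0.0908 and 0.0686, edgeR), and with mouse as a block Sbsn passed in progenitors (adjusted p = 0.0466, edgeR). The part of these markers in the values of the alpha genes was not tested.

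Gstm2 (log2 fold change 0.16, 95% interval −0.119 to 0.442), Gstm5 (0.04, −0.173 to 0.246) and Gsto1 (0.08, −0.0231 to 0.180) did not pass the test in HFSCs, and their treated and untreated ranges overlapped. When the mu genes were summed, their change was 0.21 with an adjusted p of 0.319 (edgeR), so the rise among mu genes rested on Gstm1. Gstm1 shares 22.8% of its words with Gstm3 and 22.6% with Gstm2-ps1.

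In CD34− progenitors, the comparison taken to have led to the choice of genes, Gsta4 had a mean of 91.8 ± 21.8 CPM without and 183 ± 16.7 CPM with N1-AcSpd (SD, n = 4), a log2 fold change of 0.99 (95% interval 0.647 to 1.34). Gsta1 changed from 6.85 ± 1.36 to 12.7 ± 1.05 CPM, a log2 fold change of 0.89 (0.522 to 1.26). Gsta2 had 0.96 (−0.0526 to 1.96) and Gsta3 1.77 (0.375 to 3.17). Gsta4, Gsta1 and Gsta3 were higher in 4 of 4 mice, and Gsta2 in 3 of 4, with mouse 4 as the exception.

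The remaining values in progenitors were smaller. Gsto1 had a log2 fold change of 0.20 (95% interval 0.0957 to 0.299) and Gstp1 of 0.18 (0.0932 to 0.260), each higher in 4 of 4 mice without overlap. Gstm1 had 0.12 (−0.0407 to 0.273), Gstm2 −0.30 (−0.585 to −0.0149) and Gstm5 −0.14 (−0.348 to 0.0733). Gstm2 was lower with N1-AcSpd in 4 of 4 mice, although the ranges overlapped. In this comparison 2 of 9 GSTs and 0.614% of all genes passed the threshold, and 4 of 9 GSTs and 351 genes did so with mouse as a block. Nothing is read from these counts because the genes were known from it.

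**Figure D4:**
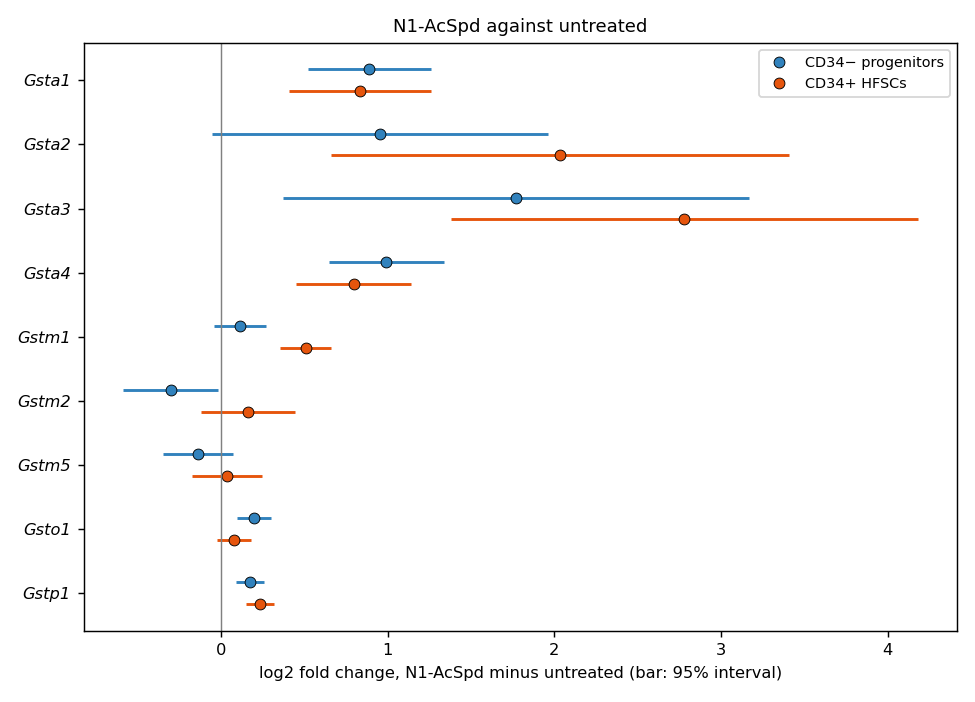
Log2 fold change of N1-AcSpd against untreated (horizontal axis, positive when higher with N1-AcSpd) for the 9 tested GSTs in CD34− progenitors (blue) and CD34+ HFSCs (orange), with 95% intervals. The alpha genes have the largest values and the widest intervals, and Gstm1 is at 0.12 in progenitors and 0.51 in HFSCs.

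The difference between the treatment effects of the fractions (CD34+ minus CD34−) contains the comparison taken to have led to the choice of genes, so its values are a description, given with intervals. It was 0.39 (95% interval 0.172 to 0.612) for Gstm1 and 0.46 (0.0616 to 0.861) for Gstm2. For the other 7 genes the interval included 0, with −0.20 (−0.679 to 0.289) for Gsta4 and −0.05 (−0.655 to 0.546) for Gsta1. By edgeR, 0 of 9 GSTs and 0 of 19049 genes (0.0%) passed an adjusted p under 0.05 for this difference, 799 genes had an unadjusted p under 0.05, and DESeq2 called 72 genes.

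Other members of the enzyme family and of glutathione metabolism were taken from lists. The lists were chosen with earlier results of these data known and do not serve as independent tests. Their counts are set against the shares of all genes called higher and lower in HFSCs, 16.1% each without treatment and 16.5% and 16.8% with N1-AcSpd, and a list count near these shares is no result about the list. Of 15 tested other glutathione transferases, 7 were higher and 1 lower in untreated HFSCs, with a median log2 fold change of 0.53 against 0.02 over all genes. Among called genes with a mean of at least 50 counts, the largest rises were in Gstk1, the mitochondrial and peroxisomal kappa enzyme (1.31, SE 0.0904), Mgst1, a membrane-bound enzyme (0.84, SE 0.117), and Gstt3, a theta enzyme (0.75, SE 0.236). Hpgds, the sigma enzyme that makes prostaglandin D, was lower (−0.96, SE 0.101). Under N1-AcSpd, 8 were higher and 1 lower, with Gstt3 at 1.28, Mgst1 at 1.26, Gstk1 at 1.17 and Hpgds at −1.03.

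Among 7 tested genes of glutathione synthesis, 2 were higher and 2 lower in untreated HFSCs, against 16.1% of all genes in each direction. Oplah, which recycles 5-oxoproline, was higher (0.71, SE 0.121), as was the amino acid transporter subunit Slc3a2 (0.41, SE 0.0827). Ggct, which releases 5-oxoproline, was lower (−1.15, SE 0.118), as was Gss, glutathione synthetase (−0.25, SE 0.0594). Under N1-AcSpd, Gclc, the catalytic subunit of the rate-limiting enzyme, was also higher in HFSCs (0.63, SE 0.147), giving 3 higher and 2 lower.

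Of 15 genes that use or recycle glutathione, 4 were higher and 7 lower in untreated HFSCs (16.1% of all genes in each direction), and 3 were higher and 7 lower under N1-AcSpd (16.5% and 16.8%). Gpx2, a glutathione peroxidase of epithelia, was higher by 1.32 (SE 0.0795) without and by 1.75 (SE 0.0804) with N1-AcSpd. Glrx, glutaredoxin, was lower by −1.85 (SE 0.125) and −1.91 (SE 0.125). Gpx8 (0.57) and Gpx4 (0.33) were higher, whereas Gsr, glutathione reductase (−0.64), and Glo1, glyoxalase (−0.41), were lower in untreated HFSCs.

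In the list of glutathione breakdown and conjugate export, 1 of 9 tested genes was higher and 4 were lower in untreated HFSCs, and 1 was higher and 2 lower under N1-AcSpd. The share of all genes called in either direction was 32.1% and 33.3%, so the count under N1-AcSpd is near the background. The exporter Abcc5 was higher (0.80 in both comparisons), and Chac1, which degrades glutathione, was lower (−0.41 and −0.45). The exporter Abcc1 (−0.29) was lower in untreated HFSCs. No gene of this list passed the threshold for treatment in either fraction.

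Of 19 genes of the NRF2 pathway, 6 were higher and 5 lower in untreated HFSCs (16.1% of all genes in each direction), and 6 were higher and 7 lower under N1-AcSpd (16.5% and 16.8%). The detoxifying enzymes Aldh3a1 (1.35, SE 0.230), Ugdh (0.92, SE 0.068) and Nqo1 (0.76, SE 0.104) were higher in untreated HFSCs. The NADPH-producing enzymes Me1 (−0.996, SE 0.160), G6pdx (−0.66, SE 0.0566) and Pgd (−0.41, SE 0.0401) were lower. Under treatment, 4 of 19 were higher and 0 lower in HFSCs, against 0.325% of all genes called, and 6 were higher and 0 lower in progenitors, against 0.614%. With mouse as a block, 5 and 9 were called. The list was chosen with earlier results of these data known, so these counts are a description.

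In treated HFSCs the largest rises of the NRF2 list were in the quinone reductase Nqo1, from 11.6 to 18.1 CPM on average (log2 fold change 0.64, SE 0.103, adjusted p = 0.0186, edgeR), the carbonyl reductase Cbr3 (0.60, SE 0.0909, adjusted p = 0.0144, edgeR) and G6pdx (0.50, SE 0.0565, adjusted p = 5.02e-03, edgeR). The median over the 19 genes was 0.22 in HFSCs and 0.21 in progenitors, against −0.01 and 0.00 over all genes. In progenitors Nqo1 changed by 0.73, Cbr3 by 0.63 and Akr1b8, an aldo-keto reductase, by 0.47.

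For the treatment counts of the lists that follow, the shares of all genes called were 0.325% in HFSCs and 0.614% in progenitors. Among the genes that use or recycle glutathione, 3 of 15 were higher and 0 lower in treated HFSCs. These were Gsr (0.74, SE 0.129, adjusted p = 0.0331, edgeR), Gpx2 (0.58, SE 0.0784, adjusted p = 7.28e-03, edgeR) and Esd, which hydrolyses S-formylglutathione (0.40, SE 0.0481, adjusted p = 6.75e-03, edgeR). In progenitors, Esd (0.38) was the 1 gene of this list past the threshold, and 4 passed it with mouse as a block. Of the synthesis genes, Gss was higher in treated progenitors (0.34) and none passed in treated HFSCs. Of the other glutathione transferases, Gstp2 alone passed in treated HFSCs and none in treated progenitors, where 1 passed with mouse as a block.

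Of 4 tested genes of the aryl hydrocarbon receptor pathway, 2 were lower in untreated HFSCs, and 1 was higher and 1 lower under N1-AcSpd. Tiparp was at −0.48 without and −0.69 with N1-AcSpd, and Cyp1b1 was higher with N1-AcSpd (0.68). None passed the threshold for treatment in either fraction.

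**Figure D5:**
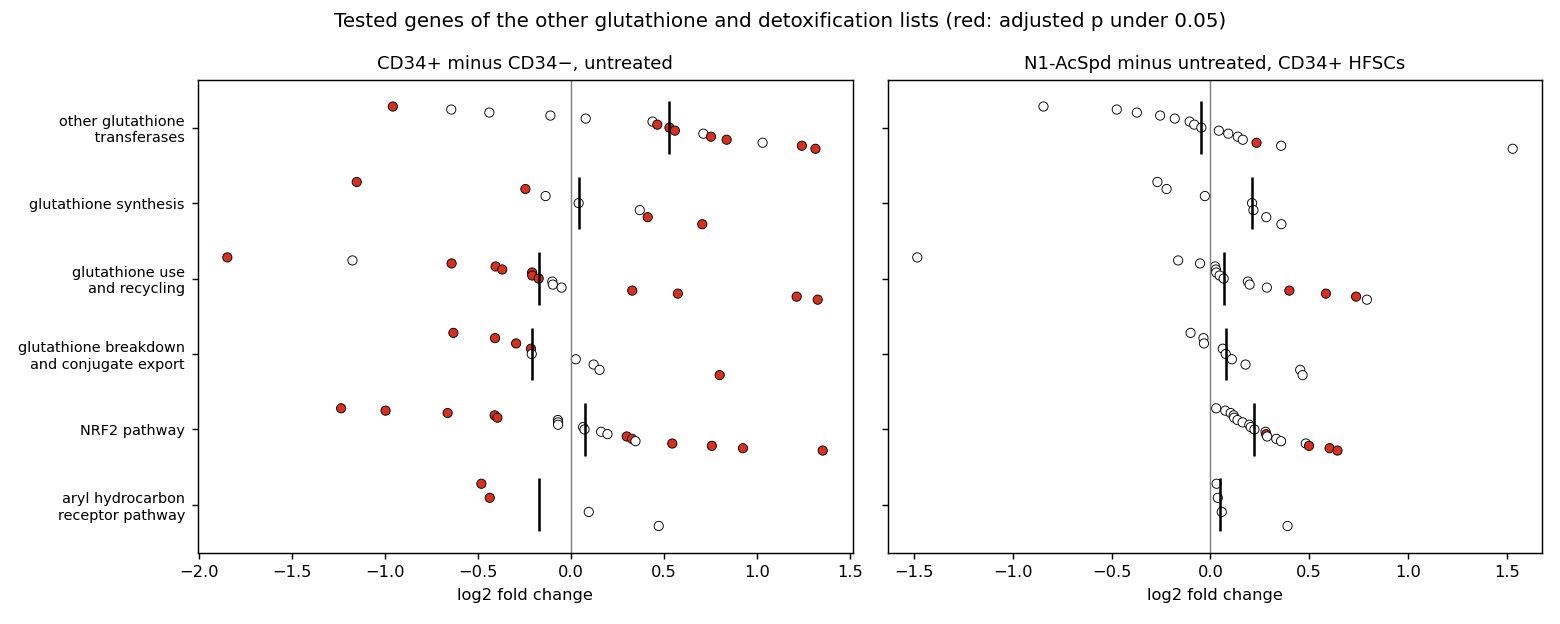
Log2 fold changes of the tested genes in 6 lists of glutathione and detoxification genes (rows), for CD34+ minus CD34− untreated (left) and for N1-AcSpd minus untreated in HFSCs (right), with 1 point per gene, filled red at an adjusted p under 0.05, and a black line at the list median. The fractions differ in both directions, whereas the 8 red points for treatment, counted over the lists, are all above 0.

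Across the 16 libraries the GSTs fell into patterns that followed the groups. Gsta4 and Gsta1 had a Pearson r of 0.992 on log2(CPM + 0.5), Gsta1 and Gsta2 of 0.979 and Gstm2 and Gstm5 of 0.984, whereas Gsta4 and Gstm2 had −0.931. The libraries share groups and mice. Around the group means, the r was 0.794 for Gsta4 and Gsta1, 0.673 for Gstm2 and Gstm5, 0.550 for Gsta1 and Gsta2 and −0.586 for Gsta4 and Gstm2. For Gsta2 and Gsta4 it fell from 0.965 to 0.189. Gsta3 and Gstp1 stood apart from Gsta1, Gsta2 and Gsta4, with an r of 0.848 with each other (0.173 around the group means) and of 0.005 and −0.0892 with Gsta4.

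The genes with the most similar patterns over the 16 libraries differed by class. For Gsta4 they were Carhsp1 (r = 0.994), Cltb (0.991) and Ovol1 (0.990), the last a transcription factor of epidermal differentiation, and for Gsta1 they were Crabp2 (0.992), Cysrt1 (0.991) and Gjb6 (0.991). Gsta2 was closest to Abhd5 (0.986), Cysrt1 (0.977), followed by Ivl. Gstm1 was closest to Gpx2 (0.991), Ugdh (0.983) and Oat (0.979), Gstm2 to Nhsl1 (0.990), Tspo (0.988) and Eya2 (0.987), and Gstm5 to Barx2 (0.989), Apoe (0.987) and Akip1 (0.985). Besides the overlapping Cfap43 (1.0), Gsto1 was closest to Hspb1 (0.989) and Pls3 (0.984), and besides Gstp2 (0.996), Gstp1 was closest to Prdx1 (0.931) and Rbm8a (0.928). Gsta3 had the lowest likeness, with Mrps34 (0.870), Mapk8ip3 (0.864) and Gstp2 (0.864). These correlations share libraries and groups and are descriptions.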

How the data were processed

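RNA was measured by 3′ RNA-seq with UMIs in 16 libraries, 4 groups of the same 4 mice. The deposited values are counts of unique UMIs per gene. Per the study's methods, the authors demultiplexed reads with FLEXBAR, pseudo-aligned the second read to mm10 with Kallisto (0.45.0 in the submitters' processing notes), assigned reads to genes with BEDTools and counted unique UMIs in R. The annotation release is not given in the sources used here. All 16 per-sample columns were used, and 156050 empty cells were read as 0. Of the counts, 0.116% belonged to 62 identifiers without a symbol, which were kept.

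Genes with a mean of at least 5 counts (19049) were fitted in edgeR 4.0.16 (R 4.3.3) with TMM scaling, a quasi-likelihood F test and a mean for each of the 4 groups. Adjusted p-values used the Benjamini-Hochberg method over all tested genes, with 0.05 as the threshold, and SEs were derived from the F statistic. CPM are TMM-scaled. The scripts were tested on simulated data. Intervals cover the spread between libraries. Since each mouse gave 1 library per group, replicates are animals. The labels give the same mouse for each replicate number, which pairs the groups. Over 24 pairs of libraries the mean correlation of deviations from group means was 0.0133 (−0.0689 to 0.0858).

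Named were the 10 GSTs, up to 3 rises and 3 falls per list (called, averaging 50 counts or more), and the 3 most similar genes per GST by Pearson r of log2(CPM + 0.5). A list gene that this rule names is not reported here. The GSTs and the lists were chosen with earlier results of these data known. Shared 31-base words came from GENCODE M21 transcripts and upstream windows from RefSeq (GRCm38.p6). Alternatives were DESeq2 (1.42.0), DESeq2 size factors, library totals, filterByExpr, no filter on low counts, mouse as a block, the compared groups alone, thinning to the smallest library, summed copies, and omission of single libraries or mice.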

Additional observations from a re-analysis of the deposited data

Results flagged for a closer look

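Of 36 combinations of a tested GST and a group, 1 had a library far from the other 3. Gstm5 was at 10.65 CPM in treated CD34− progenitors of mouse 3, whereas the other 3 libraries of that group were at 12.5 to 12.7 CPM. By chance about 1 in 20 such groups would stand out in this way. No GST moved in opposite directions in all mice of the CD34− and CD34+ fractions.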

How the results depend on the processing

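The differences between fractions kept their calls and directions, apart from the call of Gstp1 and the direction of Gsta3, which did not pass the test. Over the 20 runs without a library or a mouse, 7–8 GSTs and 4506–6211 genes were called without treatment, and 7–8 GSTs and 4927–6369 genes with N1-AcSpd. Treatment calls varied far more. In progenitors (2 GSTs and 117 genes) the alternatives gave 35 genes and 1 GST without the filter on low counts, 0 genes and 0 GSTs in a fit of the compared groups alone, 558 genes and 4 GSTs with DESeq2 and 63 genes after thinning, and 4–158 genes and 0–3 GSTs when a library or mouse was left out. In HFSCs (2 GSTs and 62 genes) they gave 35 genes without the filter, 3 genes and 0 GSTs in the compared groups alone, 423 genes with DESeq2 and 32 genes after thinning, and 3–73 genes and 0–3 GSTs when a library or mouse was left out. For the difference between fractions in treatment effect, DESeq2 called 72 genes, and leaving out a library or mouse gave 0–11 genes and 0–0 GSTs. The cause of these changes was not tested, except that leave-out runs and fits of the compared groups alone hold fewer libraries. With mouse as a replicate block, which pairs the groups, 351 genes and 4 GSTs were called in progenitors and 152 genes and 3 GSTs in HFSCs, and the block changed the call of no GST between fractions. Signs changed for values that did not pass the test. Gsta3 between untreated fractions ranged from −0.59 to 0.88 over the leave-out runs, Gstm5 under treatment in HFSCs from −0.0432 to 0.114, and the difference in treatment effect of Gsta1 from −0.220 to 0.0625, and was 0.0645 with Gsta1 and Gsta2 summed. Gstm1 under treatment in progenitors was −0.12 when the mu genes were summed. Of 900 log2 fold changes in leave-out runs and 366 in other alternatives, 845 and 349 kept direction and side of the threshold. Depth limited Gsta2, Gsta3 and Gstt1, which had 5, 7 and 10 counts over the untreated HFSC libraries.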
